A study of Mus musculus with 21 samples.

Results

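The GATA transcription factor family was examined across all 7 groups of an RNA-seq series of SMB21, a mouse cell line of sonic hedgehog (SHH) medulloblastoma, a cerebellar tumour of the granule neuron lineage. The members are Gata1, Gata2, Gata3, Gata4, Gata5 and Gata6, 6 of the 24047 genes in the count table, taken by symbol. The family was selected on the 2 h values: Gata2 was among the largest increases after 2 h of JNJ, so the 2 h values of every member are given as a description, with no test. The 24 h and hairpin libraries did not choose the family, but the 24 h test comes from 1 fit of all 12 drug libraries, so those of 2 h enter its filter and its estimate of spread.

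All groups are SMB21 cells kept in DMEM/F12 with B-27. JNJ is quisinostat, an inhibitor of histone deacetylases (HDACs), given for 2 h or 24 h with the vehicle DMSO as the control at each time. The hairpin groups received a virus coding for an shRNA against luciferase (shLuc, the control), Hdac1 (shHdac1) or Hdac2 (shHdac2), followed by puromycin selection. Each of the 7 groups has 3 libraries, numbered 1 to 3, 21 in all, and the labels do not say whether these were separate cultures, so the p-values weigh effects only against library-to-library variation, some of which could be technical. The dose of JNJ, the hairpin sequences and the length of selection are not in the labels used here.

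GATA factors bind DNA through a pair of zinc fingers that recognise the letters GATA, and open or hold active the genes of particular lineages. Gata1, Gata2 and Gata3 are best known from blood cells, Gata4, Gata5 and Gata6 from heart and endoderm. Gata2 and Gata3 also act in the developing nervous system, where they take part in the choice of GABAergic identity in midbrain and spinal cord and in the development of serotonergic neurons. Class I HDACs, Hdac1 and Hdac2 among them, remove acetyl groups from histones and are recruited to GATA-bound sites by cofactors such as Zfpm1.

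RefSeq promoter windows were found for 4 of the 6 members, 5 windows in all, each 250 bases before to 50 bases after a transcription start of GRCm38.p6. Those of Gata2, which has 2 starts in that table, and of Gata3 are shown because these are the members that differed between JNJ and DMSO at 24 h. Capitals mark the core letters of the family's own motif, GATA. They also mark, on either strand as for the first, the core of GC boxes, written GGGCGG. The remaining capitals are the letters of the box that the factor NF-Y binds, CCAAT. The windows are chr6:88193641-88193940 (+) and chr6:88198414-88198713 (+) for Gata2 and chr2:9878551-9878850 (-) for Gata3, each printed 5′ to 3′ on the strand of the gene.
Gata2 start 1: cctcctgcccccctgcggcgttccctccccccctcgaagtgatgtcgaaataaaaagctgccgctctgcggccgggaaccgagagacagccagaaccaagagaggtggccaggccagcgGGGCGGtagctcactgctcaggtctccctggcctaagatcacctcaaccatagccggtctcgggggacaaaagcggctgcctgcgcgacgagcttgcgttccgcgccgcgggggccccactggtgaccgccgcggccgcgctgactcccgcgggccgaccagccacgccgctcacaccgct
Gata2 start 2: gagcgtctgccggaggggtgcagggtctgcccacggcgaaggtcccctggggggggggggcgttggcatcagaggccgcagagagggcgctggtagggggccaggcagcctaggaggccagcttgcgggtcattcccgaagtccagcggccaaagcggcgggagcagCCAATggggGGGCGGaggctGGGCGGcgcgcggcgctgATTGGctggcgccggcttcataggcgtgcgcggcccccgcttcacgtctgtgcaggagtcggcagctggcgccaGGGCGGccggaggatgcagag
Gata3: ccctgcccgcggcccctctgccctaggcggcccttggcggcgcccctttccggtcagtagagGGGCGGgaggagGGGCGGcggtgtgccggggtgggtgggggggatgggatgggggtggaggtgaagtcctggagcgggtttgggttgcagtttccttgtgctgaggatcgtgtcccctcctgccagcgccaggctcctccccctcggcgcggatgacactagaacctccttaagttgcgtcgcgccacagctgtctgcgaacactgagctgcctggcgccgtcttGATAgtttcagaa

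Both Gata2 windows are rich in CpG, with 32 and 29 CpG dinucleotides against a median of 7 over the 32851 windows of the table. Of those windows, 90.5% have fewer CpG than Gata2 start 1 and 87.1% fewer than start 2. The Gata3 window has 22 CpG, that of Gata5 has 26 and that of Gata1 has 4. Neither Gata2 window holds the letters GATA, which 57.9% of all windows hold, while the Gata3 window and the Gata1 window hold 1 match each. GGGCGG, present in 35.7% of all windows, occurs 1 time in the Gata2 start 1 window, 3 times in that of start 2 and 2 times in that of Gata3. CCAAT, present in 37.4%, occurs 2 times, in the start 2 window of Gata2. These matches describe the letters in the windows, and the counts per gene do not tell which start was used.

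Levels are CPM, a gene's counts as a share of the library total, on library totals scaled together by the TMM method over all 21 libraries, while the tests used edgeR fits of the raw counts with scaling of their own. Library totals ran from 23094799 to 39341784 counts, at which 3 counts, the floor used per library, are 0.0763 to 0.130 CPM. Of the 6 members, 4 (Gata2, Gata3, Gata4 and Gata6) passed the filter on low counts in the drug fit of 14467 genes and in the hairpin fit of 13612. The 12 genes of the SMB21 identity list (Atoh1, Gli1, Zic1 and others) were all counted, with a summed level of 1086 to 2436 CPM per library. The alpha and beta globin genes Hba-a1 and Hbb-b1 had no count in any library.

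Gata2, a factor of blood stem cells and of GABAergic precursors, was low in every group without JNJ and high in both groups with it. In DMSO 24 h it had 12, 33 and 33 counts in libraries 1 to 3, which are 0.344, 0.845 and 0.937 CPM. In JNJ 24 h it had 536, 376 and 403 counts, which are 13.7, 11.9 and 15.7 CPM. All 3 JNJ libraries stood far above all 3 DMSO libraries. Gata2 rose 19.5-fold at 24 h, a log2 change of 4.28 with an SE of 0.43 (edgeR adjusted p = 5.82e-05), from 0.708 ± 0.319 to 13.8 ± 1.91 CPM (SD, n = 3 each). Of the 14467 genes tested, 224 (1.55%) had a larger log2 change at 24 h. Within the pairs of libraries that share a number, the fold was 39.9, 14.1 and 16.8. In bulk RNA a gene read in more cells and a gene read more in each cell cannot be told apart, here or for any other member.

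At 2 h, the time that chose the family, Gata2 had 30, 27 and 13 counts in DMSO (0.861, 0.730 and 0.381 CPM) and 427, 210 and 473 counts in JNJ (12.0, 7.62 and 13.8 CPM). The group means were 0.657 ± 0.248 and 11.1 ± 3.19 CPM, a log2 change of 4.08. JNJ library 2 was the lowest of the JNJ libraries at both times. The order of the 7 groups by mean Gata2 level was JNJ 24 h, JNJ 2 h, shLuc, DMSO 24 h, DMSO 2 h, shHdac2 and shHdac1. Libraries of JNJ 24 h and JNJ 2 h overlapped in level, those of JNJ 2 h lay wholly above shLuc, and every later pair of neighbours in the order overlapped.

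**Figure D1:**
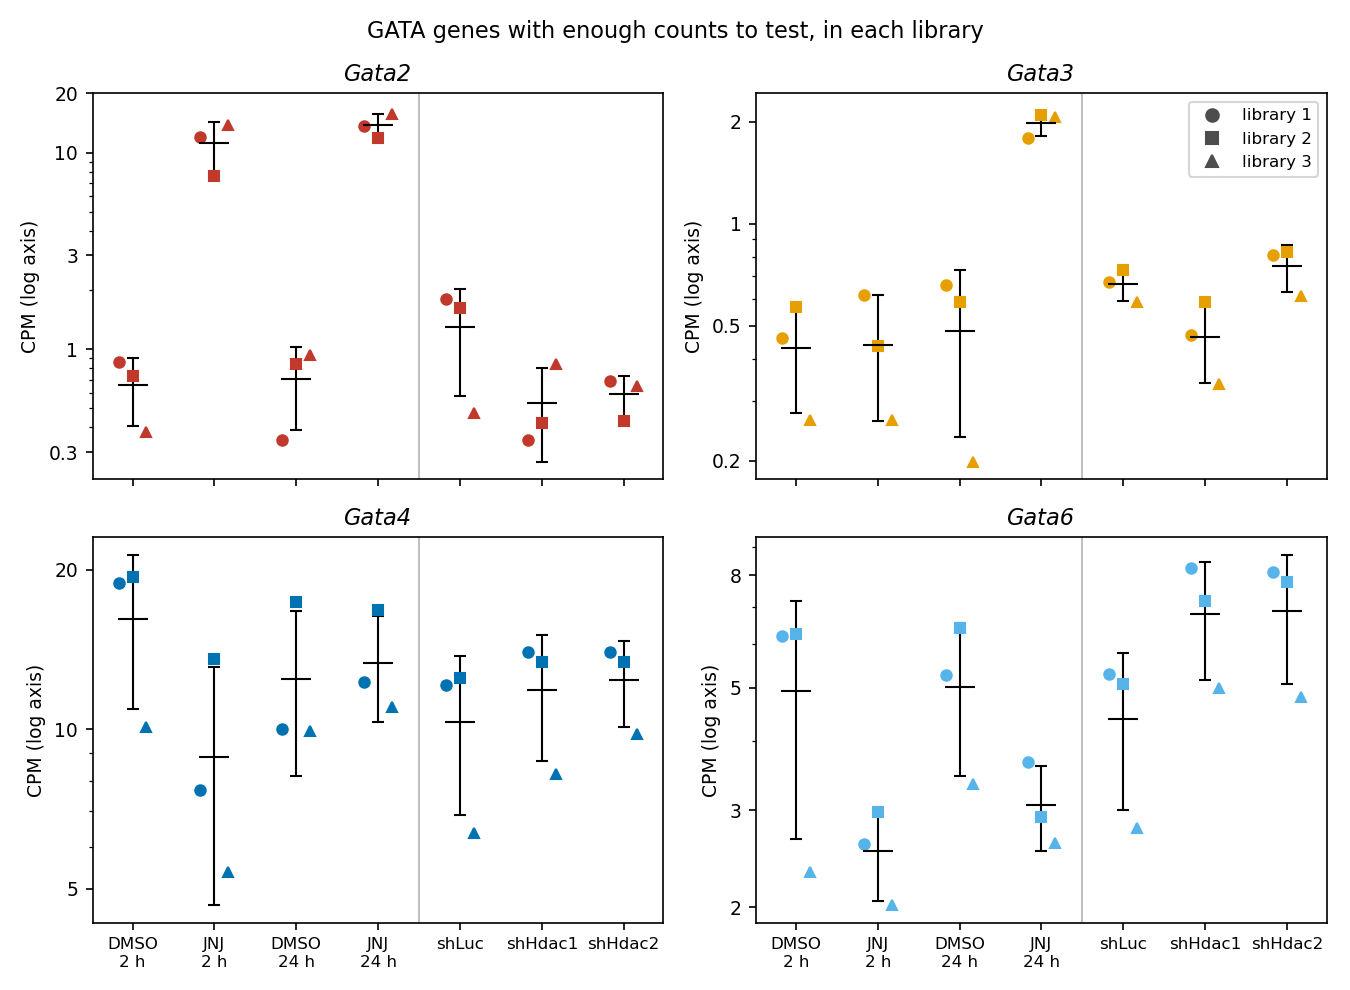
CPM of Gata2, Gata3, Gata4 and Gata6 in each library on a log axis, by group, with the mean (dash) and SD (bar) of 3 libraries and a symbol for each library number. Gata2 stands at 7.62 to 15.7 CPM in the JNJ libraries of both times and at or under 1.81 CPM elsewhere, Gata3 is high in JNJ 24 h alone, and library 3 is the lowest of its group for Gata4 and Gata6 throughout.

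Gata3, known from T cells and sympathetic and serotonergic neurons, differed from Gata2 in that its level in JNJ was high at 24 h only. In DMSO 24 h it had 23, 23 and 7 counts (0.658, 0.589 and 0.199 CPM), and in JNJ 24 h 70, 66 and 53 counts (1.79, 2.09 and 2.07 CPM). The lowest JNJ 24 h library was above every library of the other 6 groups. Gata3 rose 4.11-fold at 24 h, a log2 change of 2.04 with an SE of 0.52 (edgeR adjusted p = 0.00958), from 0.482 ± 0.248 to 1.99 ± 0.168 CPM (SD, n = 3 each). At 2 h it had 16, 21 and 9 counts in DMSO and 22, 12 and 9 in JNJ. The means were 0.430 ± 0.154 and 0.438 ± 0.177 CPM, a log2 change of 0.031. The difference between the 24 h and the 2 h change was not tested, since the 2 h libraries chose the family. DMSO 24 h library 3 held the lowest Gata3 value of the series, and the fold within same-numbered pairs at 24 h was 2.72, 3.56 and 10.4.

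The transcripts that overlap Gata3 in RefSeq, 9230102O04Rik and 4930412O13Rik, had 13 and 2 counts over all 21 libraries. Of these, 7 and 2 were in JNJ 24 h. Whether the counting used strand is not given, so reads of Gata3 and of these transcripts may not be fully separated, but their counts are few beside the 189 of Gata3 in JNJ 24 h. RefSeq also has a non-coding transcript over Gata2, Gm38708, which was not analysed here, so its share of the reads counted as Gata2 was not tested.

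Gata4, a factor of heart, gonad and endoderm, was the most abundant member in the groups without JNJ. It had 349, 680 and 350 counts in DMSO 24 h (9.99, 17.4 and 9.94 CPM) and 479, 529 and 282 in JNJ 24 h (12.3, 16.8 and 11.0 CPM). The groups overlapped, with a log2 change of 0.11, an SE of 0.38 and an edgeR adjusted p of 0.853. At 2 h the values were 659, 717 and 345 counts in DMSO (18.9, 19.4 and 10.1 CPM) and 274, 374 and 184 in JNJ (7.68, 13.6 and 5.38 CPM). The log2 change was -0.86, and the groups overlapped there too.

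Gata6, which acts with Gata4 in endoderm and heart, had 184, 251 and 118 counts in DMSO 24 h (5.27, 6.43 and 3.35 CPM) and 143, 92 and 67 in JNJ 24 h (3.66, 2.92 and 2.62 CPM). JNJ library 1 lay above DMSO library 3, so the groups overlapped. The log2 change was -0.70 with an SE of 0.41 and an edgeR adjusted p of 0.206. At 2 h it had 216, 232 and 79 counts in DMSO (6.20, 6.27 and 2.32 CPM) and 93, 82 and 69 in JNJ (2.61, 2.97 and 2.02 CPM), a log2 change of -0.96. Within same-numbered pairs at 24 h, JNJ was below DMSO in all 3. The overlapping transcript Gata6os, listed as 1010001N08Rik, had 31 counts over the 21 libraries.

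Library 3 had the lowest Gata4 level in 7 of 7 groups and the lowest Gata6 level in 7 of 7 groups. Of the 14551 genes kept over all libraries, 610 (4.19%) had their lowest value in library 3 of every group and 852 (5.86%) their highest. For Gata4 the mean of libraries 1 and 2 was 1.32 to 1.97 times that of library 3, and for Gata6 1.26 to 2.69 times. Gata3 was lowest in library 3 in 6 of 7 groups and Gata2 in 2 of 7. Of the 14551 genes, 1694 (11.6%) were lowest in library 3 in 6 or 7 groups. The labels do not say what the numbers stand for.

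Gata1, the factor of red cells and megakaryocytes, had 1 count in the whole series, in shLuc library 3. Gata5 had 7 counts, 1, 0 and 3 in DMSO 24 h and 1, 0 and 2 in JNJ 24 h. Both were at or under the floor of 3 counts in every library, no fold is given, and neither was tested. At this depth a change of these genes below the floor was not detectable.

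At 24 h, 2 of the 4 tested members were called, both higher, where 33.1% of all tested genes were called, 18.1% higher and 15.1% lower. The same 2 members had libraries that did not overlap between JNJ and DMSO, as did 55.6% of all tested genes. At 2 h, the contrast behind the choice, 1 of 4 did not overlap, against 25.4% of all tested genes, and 13.7% of genes were called there. Gata2 and Gata3 were called under all 16 alternative settings at 24 h, with log2 changes of 3.95 to 4.51 and 1.63 to 2.31 and a highest adjusted p of 0.00173 and 0.0381. Gata4 and Gata6 were called under none of the 16. With the library number as a block, their log2 changes at 24 h were 0.14 and -0.65 (edgeR adjusted p = 0.632 and 0.0795). With the 6 libraries of 24 h fitted alone, the adjusted p was 0.000397 for Gata2 and 0.0113 for Gata3.

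**Figure D2:**
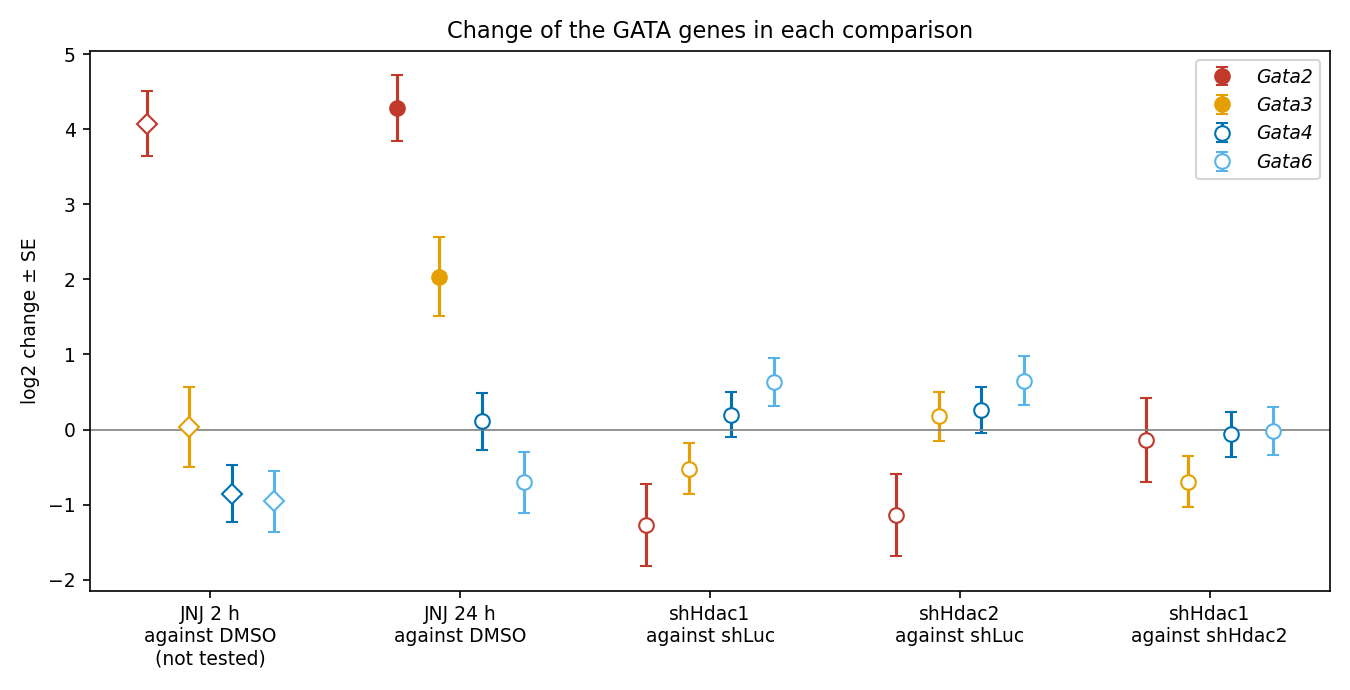
Log2 change with its SE for 4 members in the 5 comparisons, from edgeR fits of 12 drug and 9 hairpin libraries (filled symbol, adjusted p under 0.05; open circle, not called; diamond, the 2 h contrast that chose the family, not tested). The filled symbols are Gata2 at 4.28 and Gata3 at 2.04, both in JNJ 24 h against DMSO 24 h. Each SE is taken from the test statistic of the fit, so the bars at 2 h are no measure apart from the contrast that chose the family.

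Per kilobase of exon, which allows genes of different length to be compared, Gata4 stood at 3.42 ± 1.18 and Gata2 at 0.192 ± 0.0867 CPM per kb in DMSO 24 h. In JNJ 24 h they stood at 3.67 ± 0.833 and 3.75 ± 0.518 CPM per kb. The Gata2 to Gata4 ratio was 0.0340 to 0.0933 in the libraries of DMSO 24 h and 0.703 to 1.41 in those of JNJ 24 h. In the 5 groups without JNJ the order by mean level was Gata4 then Gata6, with Gata2 and Gata3 below both. In JNJ 24 h it was Gata2 and Gata4 at like levels, then Gata6 at 0.948 ± 0.166 and Gata3 at 0.617 ± 0.0521 CPM per kb.

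Summed over the 6 members, the level was 5.32 ± 1.63 CPM per kb in DMSO 24 h and 8.99 ± 0.356 in JNJ 24 h, and the libraries did not overlap. Gata2 made up 3.80% ± 2.16 of the sum in DMSO 24 h and 41.9% ± 7.14 in JNJ 24 h (SD, n = 3 each). Gata6 made up 29.2% ± 4.98 and 10.6% ± 2.01, a share that falls as that of Gata2 grows since the shares add to the whole. At 2 h the sums were 6.26 ± 2.24 in DMSO and 6.38 ± 0.455 CPM per kb in JNJ.

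**Figure D3:**
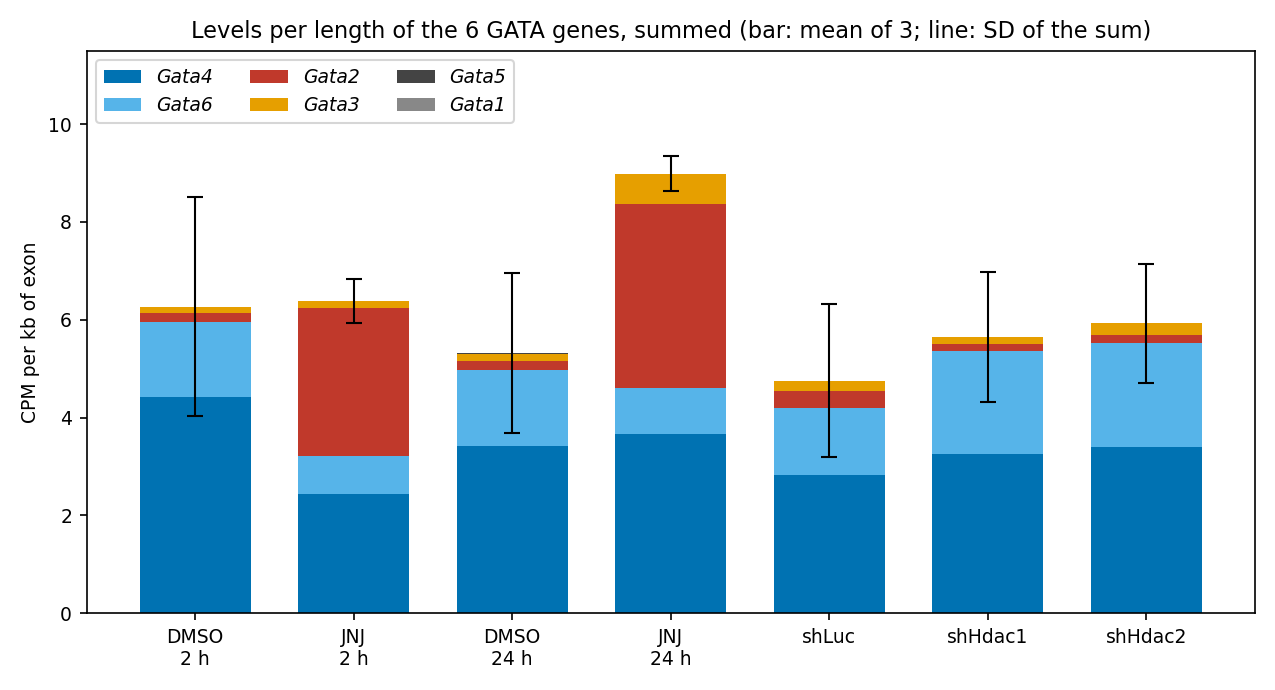
Stacked mean level of the 6 members in CPM per kb of exon for each group (3 libraries each), with the SD of the sum. The Gata2 segment is 3.02 and 3.75 CPM per kb in JNJ 2 h and 24 h and 0.352 or less elsewhere, while Gata4 and Gata6 make up nearly all of the sum in groups without JNJ.

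The hairpins were checked first by their targets. Hdac1 stood at 94.8 ± 6.29 CPM in shLuc and 30.6 ± 2.03 in shHdac1, and Hdac2 at 318 ± 25.2 in shLuc and 50.5 ± 3.36 in shHdac2 (SD, n = 3 each). Library 3 of shLuc stood apart from the other two, at -59.9 on the first principal component of log2 CPM against 8.73 and 7.64. The members' changes against shLuc, and the calls in the gene lists, are therefore also given without it, a setting in which 1512 and 1212 of 13802 genes were called in shHdac1 and shHdac2, in place of 102 and 229 of 13612. List genes called in that setting alone are named after their values were seen. The totals called in that setting are the background for every list call made in it, and no list was tested against them. Both knockdown groups are compared with the same 3 shLuc libraries.

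No tested member was called in either knockdown in the main fit, which leaves out the library number. Gata2 had 43, 42 and 12 counts in shLuc (1.81, 1.61 and 0.471 CPM), 11, 10 and 25 in shHdac1 (0.345, 0.420 and 0.840 CPM) and 22, 12 and 16 in shHdac2 (0.686, 0.430 and 0.652 CPM). Libraries 1 and 2 of shLuc lay above all 6 knockdown libraries, and library 3 of shLuc lay within their range. The log2 change was -1.27 with an SE of 0.55 in shHdac1 (edgeR adjusted p = 0.390) and -1.14 with an SE of 0.54 in shHdac2 (adjusted p = 0.352). Both signs are opposite to that of the change with JNJ, but neither change was called in this fit. Against the shLuc library of the same number, libraries 1 and 2 of each knockdown were lower. Library 3 was higher, by 1.78 times in shHdac1 and 1.38 times in shHdac2. Without shLuc library 3 the log2 changes were -1.67 (adjusted p = 0.0377) and -1.53 (adjusted p = 0.0543). With libraries 1 and 2 of each group alone they were -2.17 (adjusted p = 0.000231) and -1.58 (adjusted p = 0.00106), an alternative chosen after the values were seen, under which 6045 and 6052 genes were called in place of 102 and 229. Libraries 1 and 2 of each hairpin group were much alike, so these p-values weigh the changes against a small spread.

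Gata6 had 126, 132 and 71 counts in shLuc (5.30, 5.07 and 2.79 CPM), 263, 171 and 149 in shHdac1 (8.24, 7.18 and 5.01 CPM) and 260, 217 and 118 in shHdac2 (8.11, 7.78 and 4.81 CPM). Each knockdown library was above the shLuc library of its number, by 1.41 to 1.80 times in shHdac1 and 1.53 to 1.72 times in shHdac2, although the groups overlapped through library 3. The log2 change was 0.63 with an SE of 0.32 in shHdac1 (edgeR adjusted p = 0.495) and 0.65 with an SE of 0.32 in shHdac2 (adjusted p = 0.367). With the library number as a block the values were 0.66 (adjusted p = 0.0523) and 0.66 (adjusted p = 0.0411), so that Gata6 was then called higher in shHdac2. Numbers were not taken to pair libraries 1 and 2 of the hairpin groups, as given under processing. Without shLuc library 3, the lowest of its group, the values fell to 0.39 (adjusted p = 0.400) and 0.42 (adjusted p = 0.382), and Gata6 was called in neither. The block raised the genes called to 523 in shHdac1, 801 in shHdac2 and 886 between the knockdowns, from 102, 229 and 280. With libraries 1 and 2 alone, where the spread is small as said for Gata2, Gata6 was called in both, at 0.57 (adjusted p = 0.00327) and 0.62 (adjusted p = 0.00180).

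Gata3 had 16, 19 and 15 counts in shLuc, 15, 14 and 10 in shHdac1 and 26, 23 and 15 in shHdac2, with means of 0.664 ± 0.0710, 0.464 ± 0.126 and 0.749 ± 0.119 CPM. The shHdac1 libraries lay just below those of shLuc and of shHdac2, with log2 changes of -0.52 (SE 0.34, edgeR adjusted p = 0.627) and -0.69 (SE 0.34, adjusted p = 0.404). Gata4 had 288, 325 and 162 counts in shLuc, 447, 319 and 245 in shHdac1 and 449, 373 and 240 in shHdac2, with log2 changes against shLuc of 0.20 and 0.26 (SE 0.30 each, edgeR adjusted p = 0.874 and 0.735). Its libraries overlapped between all 3 hairpin groups. Without shLuc library 3 the log2 change in shHdac1 and shHdac2 was -0.61 and 0.10 for Gata3 (adjusted p = 0.264 and 0.870) and -0.055 and 0.015 for Gata4 (adjusted p = 0.906 and 0.976), so the sign for Gata4 in shHdac1 turned. Between the knockdowns, shHdac1 against shHdac2, the log2 change was -0.14 for Gata2 (SE 0.56), -0.061 for Gata4 (SE 0.30) and -0.020 for Gata6 (SE 0.32), with edgeR adjusted p of 0.954, 0.962 and 0.985.

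Of the 4 tested members, 0 were called in shHdac1, where 0.749% of all tested genes were, 0 in shHdac2, where 1.68% were, and 0 between the knockdowns, where 2.06% were. In the fit of all 9 hairpin libraries, Gata2 in shHdac1 was the only member to pass an unadjusted p of 0.05 in edgeR's test, with 1 such member there and 0 in the other hairpin comparisons. DESeq2 called 0 of the 4 in each hairpin comparison, at adjusted p of 0.297 or higher. The ranges of 1 member, Gata3, did not overlap in shHdac1 against shLuc, as for 16.5% of all tested genes, of 0 members in shHdac2 against shLuc (21.2%), and of 1, again Gata3, between the knockdowns (26.5%).

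Partners of the GATA factors were read from lists that were chosen with earlier results of these data known. Of 20 cofactors and complex partners, 14 were tested at 24 h, 1 was called higher and 3 lower, where 18.1% of all tested genes were called higher and 15.1% lower, with a median log2 change of -0.43 against 0.013 over all tested genes. The same shares are the background for every list at 24 h, and no difference between lists was tested. Zfpm1, the FOG cofactor through which GATA factors meet corepressors, had 67.4, 64.0 and 68.5 CPM in DMSO 24 h and 164, 125 and 192 CPM in JNJ 24 h. It rose 2.42-fold, a log2 change of 1.28 with an SE of 0.22 (edgeR adjusted p = 0.00102), with no overlap. Zfpm2, the second FOG protein and a partner of Gata4, was at 23.4 ± 3.16 and 20.8 ± 1.44 CPM (log2 change -0.16, adjusted p = 0.628). The LIM-only bridging proteins Lmo1 and Lmo2, which join GATA factors to bHLH proteins in larger complexes, fell by 1.23 and 1.32 on the log2 scale (SE 0.31 and 0.34, adjusted p = 0.00896 and 0.0106). The call of Lmo1 was lost with libraries 1 and 2 alone (adjusted p = 0.0944). Lmo2 had 124, 108 and 79.3 CPM in DMSO 24 h and 68.2, 26.0 and 29.2 in JNJ 24 h, and its call was lost without JNJ library 3 (adjusted p = 0.0505). Ldb1, which dimerises to hold such complexes together, fell by 0.44 (adjusted p = 0.0455), a call lost under 12 of 16 alternative settings.

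**Figure D4:**
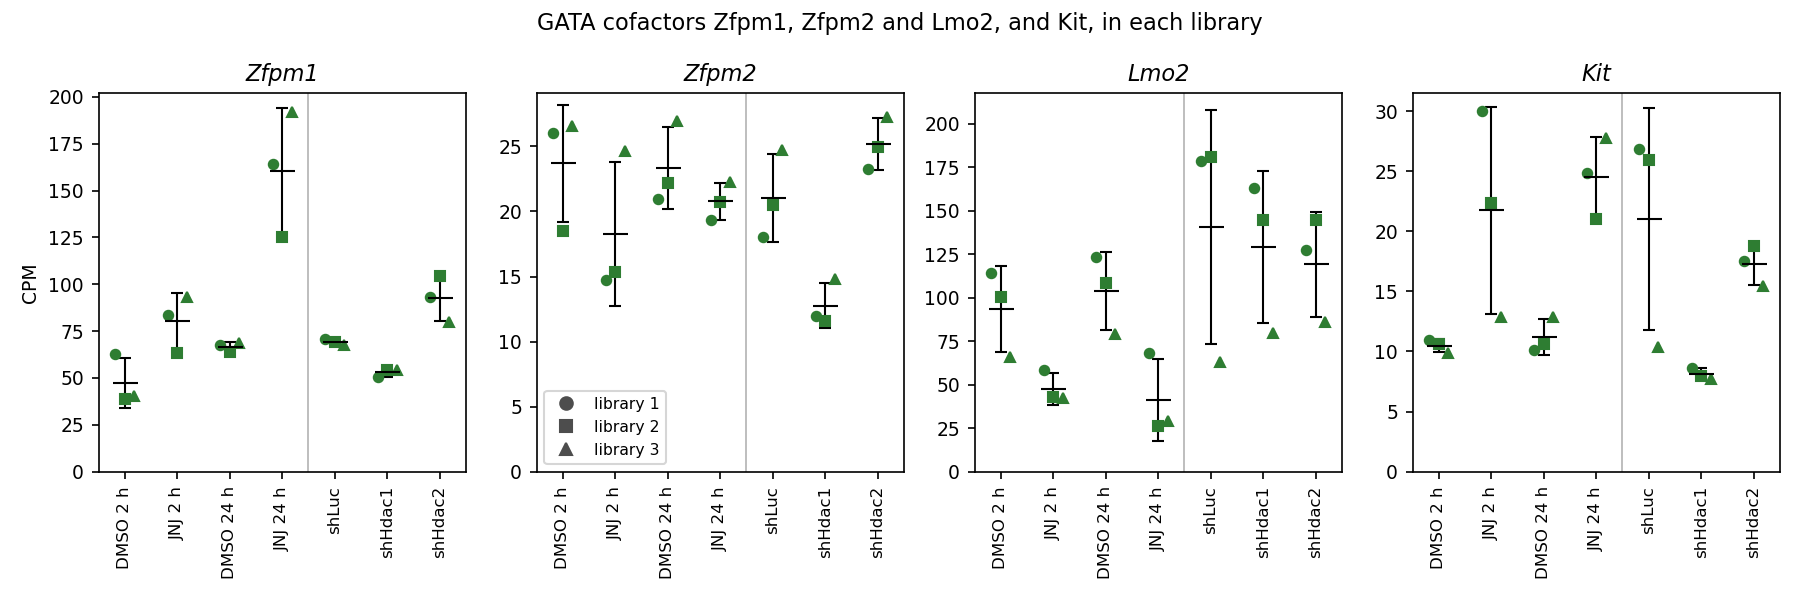
CPM of the GATA cofactors Zfpm1, Zfpm2 and Lmo2 and of Kit in each library, by group, with the mean and SD of 3 libraries. Zfpm1 reaches 125 to 192 CPM in JNJ 24 h against 64.0 to 68.5 in DMSO 24 h, and Zfpm1 and Zfpm2 are lower in every shHdac1 library than in every shHdac2 library.

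The FOG genes also differed between the knockdowns. Zfpm1 had 70.9, 69.3 and 67.4 CPM in shLuc, 50.4, 54.3 and 54.2 in shHdac1 and 93.2, 104 and 79.9 in shHdac2. Zfpm2 had 18.0, 20.5 and 24.7 CPM in shLuc, 11.9, 11.6 and 14.8 in shHdac1 and 23.3, 24.9 and 27.3 in shHdac2. For both, all shHdac1 libraries were lower than all shHdac2 libraries and all shLuc libraries. Between shHdac1 and shHdac2 the log2 change was -0.80 for Zfpm1 (SE 0.10, edgeR adjusted p = 0.00866) and -0.98 for Zfpm2 (SE 0.15, adjusted p = 0.0152). Each call was lost in 4 of 16 alternative settings, at adjusted p up to 0.0664 for Zfpm1 and 0.0987 for Zfpm2, with the sign kept in all 16. Against shLuc no cofactor was called by edgeR in either knockdown, of 13 tested (at an unadjusted p under 0.05, 4 passed in shHdac1 and 3 in shHdac2, and DESeq2 called Zfpm1 and Zfpm2 in shHdac1 and Zfpm1 in shHdac2). The share of all genes past that unadjusted p was not taken. Such counts, here, for the members and for the other lists, therefore have no background and are a description. The totals that DESeq2 called are given in the closing section. With shLuc library 3 left out edgeR called 1, Zfpm2 in shHdac1 (log2 change -0.60, adjusted p = 0.0320), while Zfpm1 was at -0.41 in shHdac1 and 0.40 in shHdac2 (adjusted p = 0.0545 and 0.0642).

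Among 9 other genes with a GATA-type zinc finger, all tested, 0 were called higher and 4 lower at 24 h, with a median log2 change of -0.48. Mta1 and Mta3, subunits of the NuRD complex in which Hdac1 and Hdac2 also sit, fell by 0.72 and 0.93 on the log2 scale (edgeR adjusted p = 0.00483 and 0.00501), from 223 ± 10.5 to 135 ± 3.71 CPM and from 57.5 ± 12.1 to 29.9 ± 2.56 CPM. Gatad1 fell by 0.71 (adjusted p = 0.0109), a call lost with libraries 1 and 2 alone. The fourth gene, Trps1, was named after its values were seen and fell by 0.76 (adjusted p = 0.0189), a call lost in 4 of 16 settings. None of the 9 was called in a knockdown against shLuc (at an unadjusted p under 0.05, 4 passed in shHdac1 and 2 in shHdac2, and DESeq2 called Mta1 in shHdac1 and Trps1 in shHdac2). With shLuc library 3 left out, a fit that called far more of all genes, Trps1 was called higher in both (log2 change 0.69 and 0.74, adjusted p = 0.0183 and 0.0177). Mta1 was then called lower in shHdac1 (-0.34, adjusted p = 0.0245).

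Genes of the neurons in which Gata2 and Gata3 act were taken from a list of 22, of which 12 were tested at 24 h. Of these, 5 were called higher and 1 lower (18.1% and 15.1% of all tested genes), with a median log2 change of 1.72 against 0.013 over all tested genes. All 5 stayed at low levels. The filter kept a gene with enough counts in at least 3 libraries, of whichever group, so a gene near 0 in DMSO could be tested only if it was high with JNJ. Slc6a4 passed through JNJ 24 h alone, so the count called higher and the median of this list may lean upward. Slc6a4, the serotonin transporter, had 0, 0 and 0.0284 CPM in DMSO 24 h, 1 count in all, and 0.512, 0.634 and 1.02 CPM (66 counts) in JNJ 24 h, a ratio of 74.9 with an exact 95% counting interval of 13.0 to 3004. Tph2, the enzyme of serotonin synthesis in the brain, rose from 0.409 ± 0.0668 to 1.91 ± 0.645 CPM (log2 change 2.21, SE 0.43, edgeR adjusted p = 0.00211). Lhx5, a LIM-homeodomain factor of GABAergic and other interneurons, rose from 0.273 ± 0.0890 to 2.05 ± 0.594 CPM (log2 change 2.90, SE 0.68, adjusted p = 0.00585). Its relative Lhx1 fell from 110 ± 24.3 to 51.0 ± 9.10 CPM (log2 change -1.10, adjusted p = 0.00996).

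Foxn4, which acts upstream of Gata2 in V2b interneurons, and Gad1, an enzyme of GABA synthesis, were named after their values were seen, with log2 changes of 1.94 (adjusted p = 0.00747) and 1.56 (adjusted p = 0.0412), the latter lost in 7 of 16 settings. The GABA transporter Slc32a1 was at 0.973, 0.230 and 0.540 CPM in DMSO 24 h and at 3.53, 0.0634 and 2.81 CPM in JNJ 24 h (adjusted p = 0.235), so library 2 moved against the other two. Tal1, a partner of Gata2 in both blood and GABAergic precursors, was at 5.38 ± 3.00 and 3.69 ± 0.669 CPM (adjusted p = 0.419). None of the 11 genes of this list tested in the hairpin fit was called by edgeR (at an unadjusted p under 0.05, 3 passed in shHdac1, 1 in shHdac2 and 2 between the knockdowns, and DESeq2 called 0). In the fit without shLuc library 3, Foxn4 and Lhx5 were among the genes called lower in shHdac1 (log2 change -2.10 and -2.06, adjusted p = 0.00713 and 0.0417), and 0 of 12 were called in shHdac2.

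Genes of the other tissues of the family were mostly too low to test. Of 20 blood genes 7 were tested and 1 was called at 24 h, Kit, the stem cell factor receptor of mast cells and blood progenitors, which rose from 11.2 ± 1.46 to 24.5 ± 3.36 CPM (log2 change 1.14, SE 0.27, edgeR adjusted p = 0.00639). Of 13 endothelial genes 7 were tested and 2 were called, both higher. These were Kdr, the VEGF receptor, with 18 counts in DMSO 24 h and 231 in JNJ 24 h (log2 change 3.88, adjusted p = 0.000442), and Nos3, the endothelial nitric oxide synthase (2.20, adjusted p = 0.0106, lost with libraries 1 and 2 alone). Of 17 heart and endoderm genes 5 were tested and 2 were called higher, Tnni3, cardiac troponin I, with 22 and 180 counts (log2 change 3.14, adjusted p = 0.00589), and Hnf4a, a liver and gut factor, with 8 and 94 counts (log2 change 3.64). Hnf4a was at or under 0.143 CPM in every other drug library, so it passed the filter through JNJ 24 h alone. It could enter the test only by being high there, so no p is given for Hnf4a and its call is a description. Of 9 T cell genes 2 were tested and Tcf7, a factor of T cell and Wnt signalling, was called higher, from 2.80 ± 1.17 to 12.7 ± 3.14 CPM (log2 change 2.18, adjusted p = 0.000857).

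The medians of these 4 lists at 24 h were 0.54, 0.47, 0.76 and 0.88 on the log2 scale, over the few genes that passed the filter. The upward lean that the filter can give, described for the neural list, applies to them too. None of their genes was called by edgeR in a hairpin comparison (at an unadjusted p under 0.05, Kit, Kdr and Actc1 passed in shHdac1, Mef2c in shHdac2, and Kit, Kdr, Cdh5, Tek and Actc1 between the knockdowns, and DESeq2 called Kit in shHdac1 and between the knockdowns). Without shLuc library 3, Kit was called lower in shHdac1 and shHdac2 (log2 change -1.71 and -0.61, adjusted p = 0.00158 and 0.0224), Ikzf1, a lymphoid factor, and Cdh5, the endothelial cadherin, lower in shHdac1 (-1.63 and -1.29, adjusted p = 0.0343 and 0.0219) and Mef2c, a muscle and neuron factor, higher in shHdac2 (1.09, adjusted p = 0.0312). Summed over 7 blood markers, the level after 24 h was 11.6 to 13.5 CPM with DMSO and 22.7 to 29.6 with JNJ, led by Kit, with Hba-a1 and Hbb-b1 at 0. Summed over 13 endothelial markers, it was 2.64 to 13.4 and 8.65 to 9.36 CPM, with Icam2 and Cldn5 at 0 in both groups. The 4 microglial markers summed to 0.909 to 1.61 and 4.22 to 6.09 CPM, 7 mesenchymal markers to 12.0 to 17.6 and 22.3 to 36.6 CPM, and 3 astrocyte markers to 7.13 to 9.66 and 3.16 to 6.82 CPM. The part of such cells in the values of Gata2 and Gata3 was not tested.

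Of 12 genes of the granule lineage and the SHH tumour, all tested, 0 were called higher and 5 lower at 24 h (18.1% and 15.1% of all tested genes), with a median log2 change of -0.84. Barhl1, Atoh1 and Insm1, transcription factors of granule precursors, fell by 1.62, 1.08 and 1.31 on the log2 scale (edgeR adjusted p = 0.00183, 0.00161 and 0.00786). Pax6 and Gli1, named after their values were seen, fell by 1.42 and 0.79 (adjusted p = 0.00867 and 0.0236), the latter lost in 5 of 16 settings. The sum of these 12 genes after 24 h was 2134 to 2436 CPM with DMSO and 1220 to 1581 with JNJ. In the hairpin libraries Barhl1 was lower in shHdac2 than in shLuc (1.75-fold, adjusted p = 0.0373, lost in 7 of 16 settings), and Neurod1, a factor of granule neuron differentiation, was lower in shHdac1 than in shHdac2 (1.76-fold, adjusted p = 0.0141, lost in 5 of 16). Without shLuc library 3, Barhl1 and Atoh1 were called lower in shHdac1 (log2 change -0.69 and -1.02, adjusted p = 0.0224 and 0.0222) and in shHdac2 (-0.66 and -1.11, adjusted p = 0.0290 and 0.0209), and Neurod1 higher in shHdac2 (0.54, adjusted p = 0.0470).

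**Figure D5:**
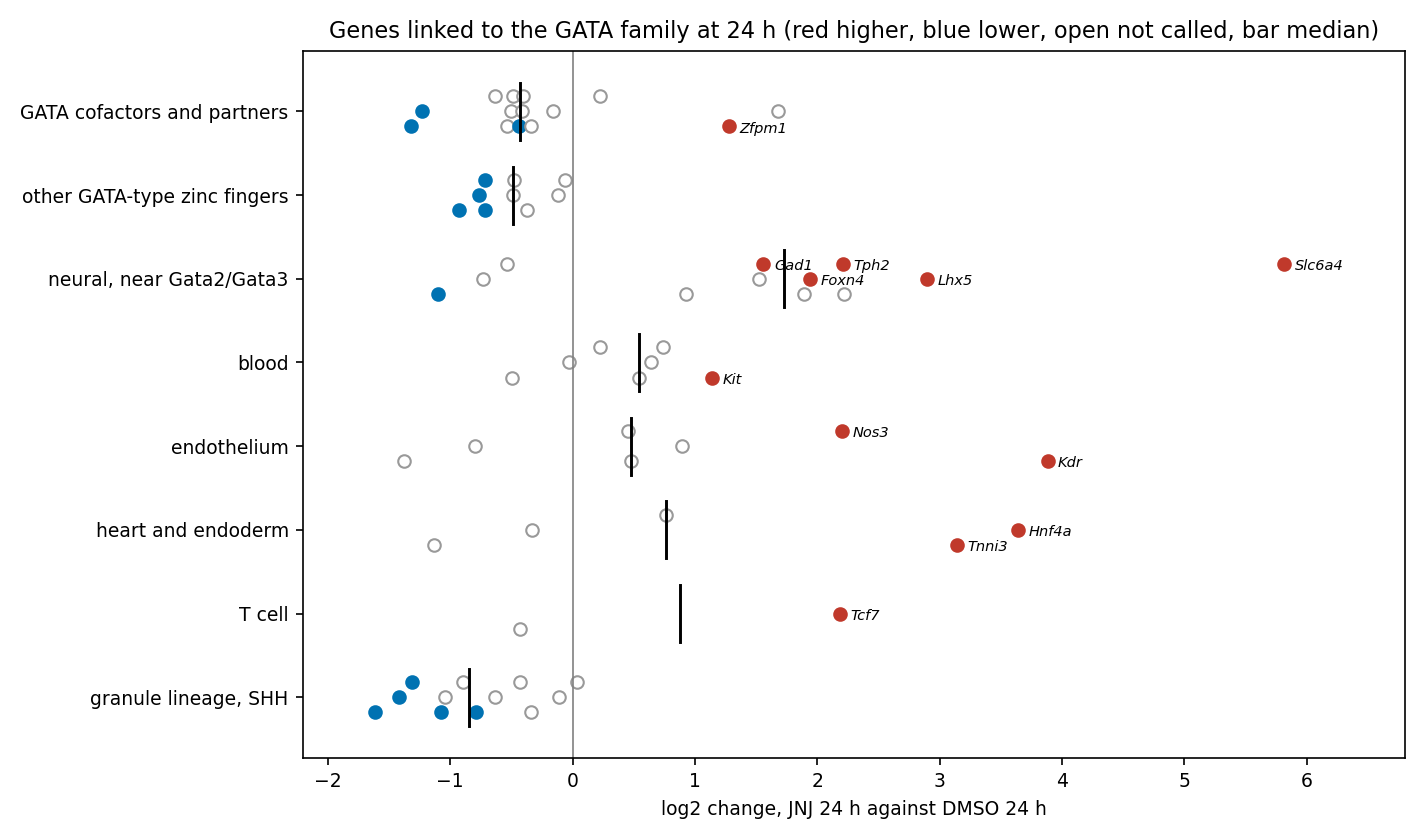
Log2 change at 24 h, JNJ against DMSO, of each tested gene of 8 lists linked to the GATA family or to the tumour lineage (red, called higher; blue, called lower; open, not called; bar, list median; height within a list has no meaning). The list medians run from -0.84 for the granule lineage to 1.72 for the neural genes, and the point of Slc6a4 rests on 1 count in DMSO 24 h. Slc6a4 and Hnf4a passed the filter through JNJ 24 h alone.

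Across the 12 drug libraries, the genes whose log2 CPM followed Gata2 most closely, among the 12594 tested genes that averaged 1 CPM or more, were Rgs9bp, Casp9, Slc9a3r1, Plag1, Pitx3 and Pi4k2b, with Pearson's r of 0.981, 0.975, 0.973, 0.971, 0.971 and 0.969. These libraries share treatment and time, so the values are a description with no test. Rgs9bp was at 0.410 CPM in DMSO 24 h and 4.62 in JNJ 24 h. Slc9a3r1, a scaffold protein of the cell membrane, was at 53.6 and 197 CPM, and Casp9, the initiator caspase of the mitochondrial pathway, at 24.3 and 45.8 CPM. Plag1 and Pitx3, a zinc finger and a homeodomain factor, were at 0.487 and 5.28 CPM and at 0.0749 and 3.04 CPM. Pi4k2b, a lipid kinase, was at 23.7 and 39.4 CPM. The choice of genes was not stable, since the 6 highest by Spearman's rho shared 1 gene with these, Slc9a3r1. The 6 highest over all 21 libraries shared 1, Plag1, in a setting that also used library totals without TMM scaling. Within the family, r with Gata2 was -0.31 for Gata4 and -0.59 for Gata6.

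The nearest counted protein-coding genes on either side of the members in RefSeq were read for changes at the same loci. Non-coding genes or pseudogenes lie nearer on at least 1 side of every member, and those were not analysed here. Rpn1, beside Gata2 on chromosome 6, was at 415 ± 40.5 CPM in DMSO 24 h and 556 ± 68.6 in JNJ 24 h (log2 change 0.43, SE 0.22, edgeR adjusted p = 0.154), and Dnajb8 on the other side had 4 counts over 21 libraries. Celf2 and Taf3, on either side of Gata3 on chromosome 2, had log2 changes of -0.30 and 0.042 (adjusted p = 0.587 and 0.904). Slco4a1, beside Gata5, rose from 0.898 ± 0.220 to 3.54 ± 0.443 CPM (log2 change 1.98, SE 0.38, adjusted p = 0.00183), where Gata5 itself had no more than 3 counts in a library. Mib1 and Rbbp8, on either side of Gata6 on chromosome 18, fell by 0.76 and 1.61 on the log2 scale (adjusted p = 0.0243 and 0.000235). Beside Gata4 on chromosome 14, Neil2 and Blk had 72 and 16 counts over all libraries and were not tested, and Hdac6, beside Gata1 on chromosome X, was not called (log2 change 0.16, adjusted p = 0.501).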

How the data were processed

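RNA-seq libraries of 21 samples were used, in 7 groups of 3 set by their labels. Per the labels' protocols, stranded mRNA libraries were read single-end on a NextSeq instrument, and the submitters' processing notes name STAR 2.5.1b and mm9. The deposited values are raw read counts per gene symbol, as their whole numbers and unequal sums show. The sources used here do not give the annotation, the strand counted or how reads with several matches were treated. PCR copies were not told apart, so a floor or an interval on counts speaks of counting error alone.

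The 12 drug and 9 hairpin libraries were fitted apart with edgeR 4.0.16 (R 4.3.3) by quasi-likelihood tests with group as the only term, TMM scaling and filterByExpr (minimum count 10, minimum total 15), two-sided. Benjamini-Hochberg adjustment ran over every tested gene, and calls were made below an adjusted p of 0.05. An SE is the size of the log2 change divided by the square root of edgeR's F statistic, so it is not an estimate apart from the test. Exon lengths came from GENCODE M21 and flanking genes and promoters from RefSeq GRCm38.p6, neither of which is the build of the counts. They served for lengths, neighbours and sequences only. The counting interval of a ratio is exact and conditional on both counts.

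The members and the gene lists were chosen with earlier results of these data known. Named genes are all members, up to 3 called genes per list, direction and comparison in order of p, the nearest annotated genes, for which the nearest counted protein-coding genes were taken where the count table does not list them, and the 6 genes most correlated with Gata2 (log2 CPM with a prior count of 2). Deviations from group means correlated between libraries of the same number by 0.245 to 0.798 in the hairpin comparisons and by 0.566 to 0.656 at 24 h. Numbers were taken to pair the libraries of 24 h. The main tests did not use this pairing, and the fits with the library number as a block are given as an alternative. At 2 h the correlation was -0.005 for number 1, 0.651 for number 2 and 0.585 for number 3. Because of number 1, numbers were not taken to pair at 2 h. In the hairpin comparisons libraries 1 and 2 correlated by 0.238 to 0.581 across numbers and by 0.245 to 0.599 within them, so numbers were not taken to pair them. Libraries numbered 3 correlated with each other by 0.352 to 0.798. No replicate pair agreed within sampling noise, and the closest, shLuc 1 and 2, had a chi-square of 3.58 per gene. For libraries 1 and 2 of shHdac1 and shHdac2 it was 4.25 and 8.76, while hairpin pairs that include library 3 had 44.9 to 74.9. Fits on libraries 1 and 2 alone therefore weigh effects against a small spread.

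The alternatives were other scaling factors (RLE, upper quartile, none), no filter, a stricter filter with a minimum count of 50, DESeq2 1.42.0, the library number as a block, other sets of libraries in the fit, and leaving out each library. The result of 1 gene of the neural list is not reported here.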

Additional observations from a re-analysis of the deposited data

Results flagged for a closer look

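The FOG cofactor Zfpm1 differed between the knockdowns, with an effect of shHdac1 that was lower than that of shHdac2 by a log2 difference of -0.80 (edgeR adjusted p = 0.00866, 3 libraries per group, lower in all 3). Zfpm2 differed in the same direction, by -0.98 (adjusted p = 0.0152, lower in all 3). Neurod1, of the granule lineage list, differed by -0.82 (adjusted p = 0.0141). Both effects share the shLuc libraries, which cancel in the difference.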

How the results depend on the processing

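At 24 h the calls of Gata2 and Gata3 held under every alternative run, and the count of genes called was 3393 to 4021 without 1 library, against 4791. Of 250 log2 changes of tested members under an alternative, the 2 h contrast left out, 233 kept their direction and side of the threshold, 6 passed it newly and 11 changed sign. Sign changes came from leaving out 1 library, with ranges of -0.089 to 0.41 for Gata4 at 24 h, -0.055 to 0.41 for Gata4 in shHdac1, and -0.63 to 0.11, -0.22 to 0.14 and -0.23 to 0.15 for Gata2, Gata4 and Gata6 between the knockdowns. The log2 change of Gata2 in shHdac1 without 1 library was -1.76 to -0.96, past the threshold only without shLuc library 3. Libraries 1 and 2 alone gave Gata2 -2.17 and -1.58 and Gata6 0.57 and 0.62 in shHdac1 and shHdac2, all called, and the replicate block called Gata6 in shHdac2 (0.66). The block changed no other member's call. The cause of these shifts was not tested.

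Counts of called genes depended on the setting. At 2 h the count of 1982 became 3455 with the replicate block, 3185 with all 21 libraries in 1 fit, 650 with the compared groups only and 1043 to 3365 without 1 library, the highest without JNJ library 3. In shHdac1 the count of 102 became 523 with the block, 6045 with libraries 1 and 2, 579 with DESeq2, 8 with all 21 libraries, 5 with the compared groups only and 2 to 1512 without 1 library. In shHdac2 the count of 229 became 801, 6052, 880, 27, 19 and 12 to 1212 in the same order. Both highest values came without shLuc library 3. Between the knockdowns the count of 280 became 886, 4874, 848, 76, 603 and 30 to 272. Higher genes made up 66.5% of the calls at 2 h and 54.5% with upper-quartile scaling. At 24 h it was 54.5%, against 63.8% with upper-quartile scaling and 68.3% with library totals, which moved the median log2 change of all genes to 0.12 and 0.17. Relative to these shifts Gata2 and Gata3 kept their direction. Depth limits Gata1 and Gata5, whose counts stayed at or under 3 per library.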
